A study of Arabidopsis thaliana with 4 samples.

Results

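The genes described here encode the machinery of DNA methylation and transcriptional gene silencing in Arabidopsis thaliana. They are 43 listed loci out of 34133 in the deposited expression table. They were picked by locus identifier for what their proteins do, with earlier results of these data known. All 43 were found in the table. They were placed in 7 steps of the silencing pathway: RNA polymerase IV (Pol IV) and its recruitment, small RNA production and Argonaute proteins, RNA polymerase V (Pol V) and its recruitment, effectors that act on Pol V transcripts, DNA methyltransferases with the proteins that maintain methylation, histone H3K9 methyltransferases, and other chromatin silencers.

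Messenger RNA was sequenced from whole seedlings of the wild type and of the mutants prp31, zop1 and sta1, with 1 library in each of the 4 groups. All seedlings were of the ecotype C24, 10 days old, and grown on agar at 23 °C under 16 h of light and 8 h of dark, with no treatment named. The labels name each mutant by its gene alone: they give no allele, no reporter transgene and no number of pooled plants, so anything else that the 4 groups share genetically is unknown here. PRP31, ZOP1 and STA1 are proteins of pre-mRNA splicing, and the series title links PRP31 to transcriptional gene silencing. The question asked here is whether the transcripts of the silencing genes themselves differed in the mutants.

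Plants silence transposons and repeats by RNA-directed DNA methylation. Pol IV makes short transcripts that are copied into double-stranded RNA, diced into small interfering RNAs and loaded into Argonaute proteins, which pair with transcripts of Pol V at the target and bring in a de novo DNA methyltransferase. Methylation is then kept through cell division by maintenance methyltransferases, partly in a loop with histone H3K9 methylation, while further chromatin proteins repress transcription without adding methylation themselves.

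Levels are fragments per kilobase of transcript, scaled to the size of the library (FPKM), as deposited. Differences between libraries were taken on the scale of log2(FPKM + 1), where changes of weakly expressed genes come out too small, for the 19240 loci whose mean over all 4 libraries reached 1 FPKM. Of the 43 silencing genes, 38 passed this filter. The 5 that did not were AGO9, VIM2 and 3 relatives of the chromatin remodeller CLASSY1, annotated as CHR42, CHR31 and CHR40. A locus counted as higher or lower by the 1.5-fold rule when its difference reached 0.58 on this scale. With 1 library in a group there is no replicate check and no p-value, so every difference is between libraries and not between genotypes. Beside FPKM ratios stands a 95% counting interval (exact binomial, on the reads implied by the values), which covers counting error only.

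The promoters of AGO6, CHR31 and MOM1 are printed here as examples, chosen after the values were seen. In at least 1 mutant library each had an FPKM ratio to the wild type beyond 1.5-fold with a counting interval that excluded 1, as had AGO9. The share of all loci that met this joint rule was not computed. CHR31 and AGO9 were under the filter, and the reads of MOM1 were estimated from transcript length. Each sequence is the 250 bases before the annotated start of the gene, 5′ to 3′ on the strand of the gene, in the Columbia reference (TAIR10.1, RefSeq annotation), so C24 bases can differ. Capitals mark the letters TATAAA or their reverse complement TTTATA.

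AGO6, chr2:13977522-13977771, minus strand: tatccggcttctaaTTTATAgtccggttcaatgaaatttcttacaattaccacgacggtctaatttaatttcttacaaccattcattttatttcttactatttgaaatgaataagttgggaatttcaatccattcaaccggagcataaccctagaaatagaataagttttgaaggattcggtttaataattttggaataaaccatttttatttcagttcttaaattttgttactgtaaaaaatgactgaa
CHR31, chr1:1623490-1623739, minus strand: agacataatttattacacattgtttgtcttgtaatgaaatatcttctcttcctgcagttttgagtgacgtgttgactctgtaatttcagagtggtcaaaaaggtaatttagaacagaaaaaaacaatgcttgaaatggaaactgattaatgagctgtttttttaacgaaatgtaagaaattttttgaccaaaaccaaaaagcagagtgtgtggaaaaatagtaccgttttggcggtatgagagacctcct
MOM1, chr1:2511085-2511334, minus strand: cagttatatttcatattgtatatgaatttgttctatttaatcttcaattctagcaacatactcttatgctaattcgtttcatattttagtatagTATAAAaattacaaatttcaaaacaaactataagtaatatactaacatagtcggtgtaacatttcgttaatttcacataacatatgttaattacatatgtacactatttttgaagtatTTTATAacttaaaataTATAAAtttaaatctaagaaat

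Searched on both strands, the TATA box letters TATAAA stood once in the AGO6 window, at positions -236 to -231 from the start and on the opposite strand. The MOM1 window held 3 matches, and the CHR31 window held none. Among all 27443 promoters of this length 47.3% held such a match, and 20 of the 42 silencing genes searched did. The E2F letters TTTCCCGC and TTTGGCGC, known from genes of dividing cells, were in 0.958% of all promoters and in 0 of the 42. The telo box AAACCCTA was in 4.49% of all promoters and in 1 of the 42, RDM1, and the site II letters TGGGCC were in 13.7% and in 7 of the 42. These matches describe the printed windows and say nothing about which factors bind there.

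The implied depth, in units of 1e+06 reads and as a lower bound, ran from 40.7 in zop1 and 44.3 in sta1 to 49.2 in the wild type and 54.6 in prp31. The mutated genes were read first as a check of the labels. PRP31 was at 23.2 FPKM in the wild type, against 16.4 in prp31, 25.1 in zop1 and 23.7 in sta1, lowest in its own mutant at 0.708 of the wild type (interval 0.660 to 0.759). ZOP1 was at 14.1 FPKM in the wild type, against 12.8 in prp31, 7.99 in zop1 and 15.0 in sta1, lowest in its own mutant at 0.567 of the wild type (0.4995 to 0.644). STA1 was at 14.1 FPKM in the wild type, against 15.5 in prp31, 15.6 in zop1 and 18.9 in sta1, highest in its own mutant. Where the lesions lie is not in the labels, so this last value checks nothing. Of 5 leaf markers 4 were detected, with a summed level of 18885 FPKM in zop1 to 23591 in sta1, and RBCS1A was listed at 0 in all 4 libraries. Root markers summed to 1315 FPKM in the wild type, against 1600 in prp31, 1319 in zop1 and 1538 in sta1. Markers of both leaf and root were thus present in each library of seedlings.

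Transcripts of the silencing genes were close to one another in the 4 libraries. Across the 38 genes that passed the filter, the highest of the 4 FPKM values was a median of 1.24 times the lowest, with a range from 1.08 to 1.998. Over the loci above 0 in every library this median was 1.25, so the typical spread of the silencing genes was that of other loci. The ratio was under 1.5 for 35 of the 38 genes (92.1%), against 79.8% of 19091 loci above 0 in every library. The exceptions were AGO6, CMT3 and MOM1. As a class the genes were weakly expressed: their median in the wild type was 4.90 FPKM, within a range of 1.14 to 28.5, and 6 of the 38 lay above the median of 11.4 FPKM over all loci tested.

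**Figure D1:**
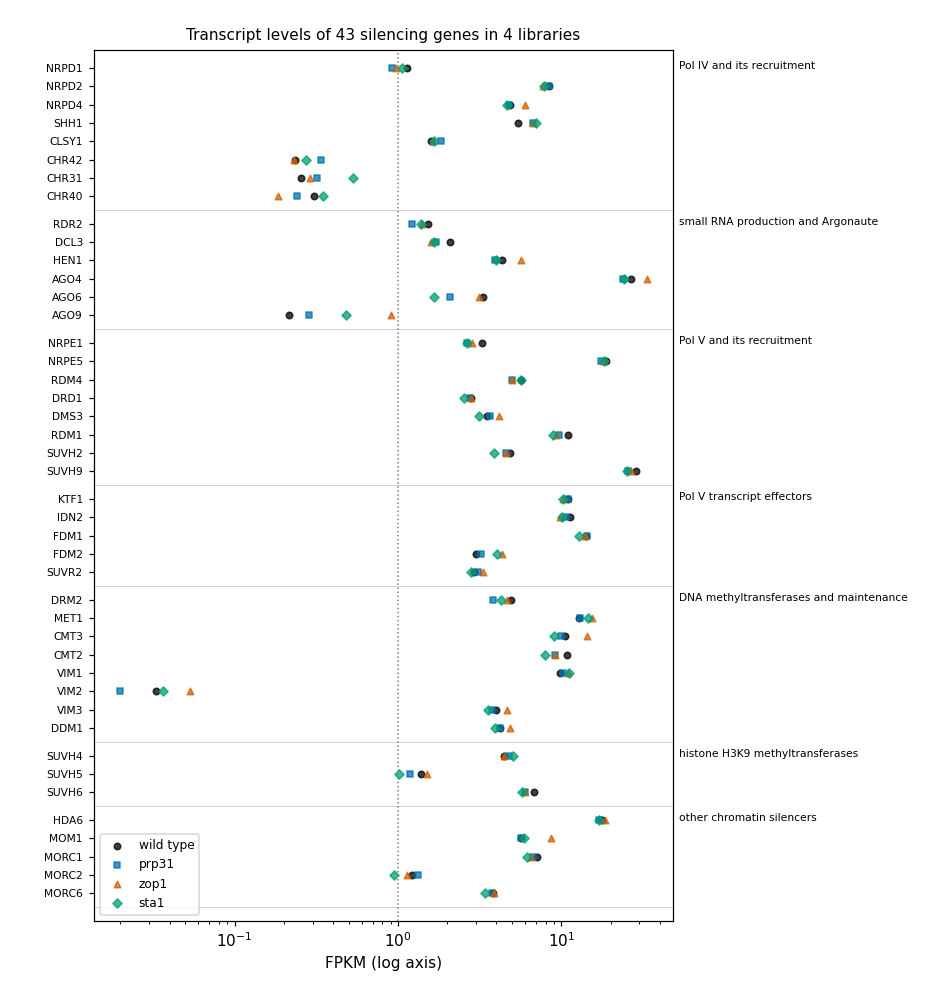
FPKM of each of the 43 silencing genes (log axis) in the wild type, prp31, zop1 and sta1 libraries, 1 point per library, grouped by step of the pathway. The 4 points of most genes lie close together; AGO6 is split with prp31 and sta1 on the low side, MOM1 and CMT3 have zop1 alone on the high side, and the dotted line marks 1 FPKM.

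In the prp31 library 0 of the 38 genes were higher and 0 were lower than in the wild type by the 1.5-fold rule, where 1.21% of all loci tested were higher and 1.37% lower. In zop1 the counts were also 0 higher and 0 lower, against 3.31% and 3.86% of all loci. In sta1 there were 0 higher and 1 lower, AGO6, against 2.19% and 4.05%. By a 2-fold rule 0 genes were counted in any mutant, where 0.941% of all loci were counted in prp31, 2.24% in zop1 and 1.98% in sta1. With shares this low, 38 genes would be expected to hold few calls or none, so the counts do not set the silencing genes apart from other loci.

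Small differences leaned downward in sta1 and, less, in prp31. The median difference in sta1 was -0.11 over the 38 genes and -0.06 over all loci, and 30 of the 38 (78.9%) were below the wild type against 60.0% of all loci. In prp31 the medians were -0.06 and -0.02, and 25 genes (65.8%) were below against 55.9%. The zop1 library split evenly, with 19 genes above and 19 below, and a median of -0.01 against -0.02. Rescaling the libraries to a common median ratio or upper quartile left 28 or 27 genes below in sta1. In prp31 it left 22 or 21 below and 16 or 17 above, nearer to an even split. The rescaled medians in sta1 were -0.06 or -0.05, against -0.004 or 0.005 over all loci. In prp31 they were -0.04 or -0.03, against 0.003 or 0.015. The 3 comparisons share the wild type library, so they are not independent of each other. Among the 4 libraries, sta1 held the lowest value of 18 of the 38 genes (47.4%, against 33.4% of all loci), and zop1 and the wild type held the highest of 15 each (39.5%, against 31.3% of all loci in either).

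**Figure D2:**
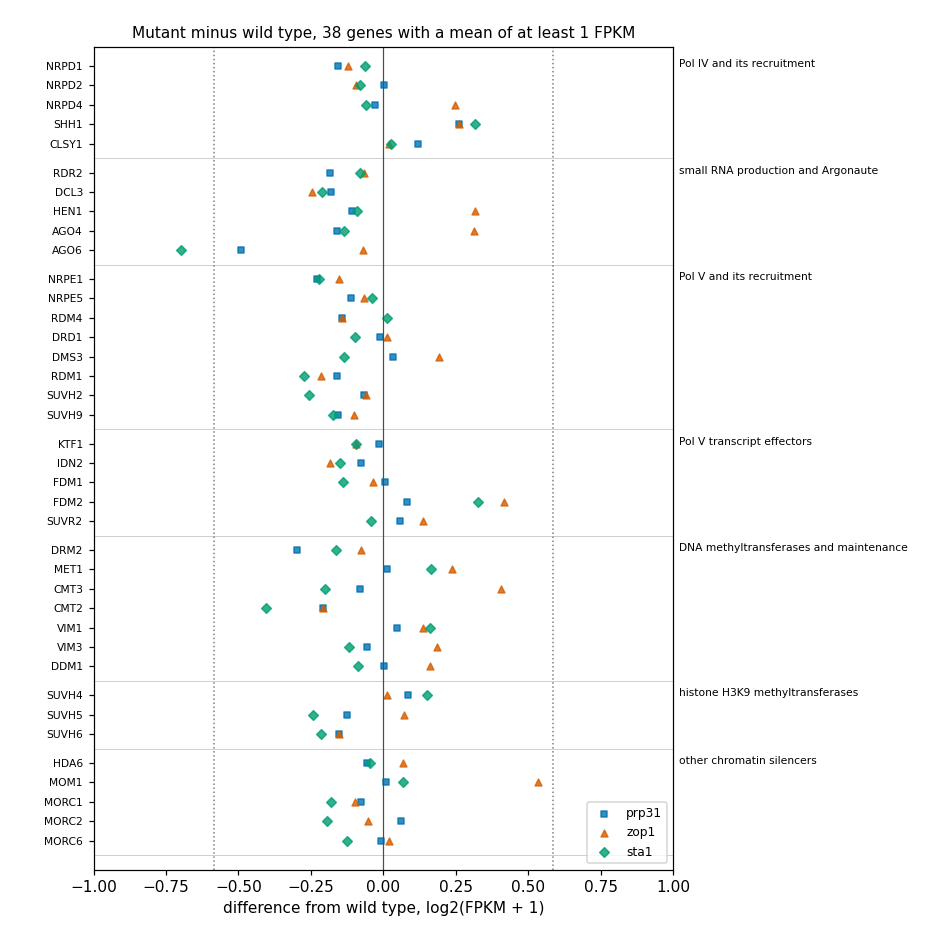
Difference from the wild type library in log2(FPKM + 1) for the 38 silencing genes with a mean of at least 1 FPKM, 1 point per mutant library, with dotted lines at the 1.5-fold rule. Only AGO6 in sta1 lies beyond a dotted line; AGO6 in prp31 and MOM1 in zop1 come nearest among the rest.

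Whole reads could be recovered from the values for 24 of the 38 genes, with 82 to 2102 reads in a library. Among these, the counting interval of the ratio lay wholly below 1 for 5 genes in prp31 (RDR2, AGO6, NRPE1, DRM2 and CMT2) and above 1 for 0, where 19.0% of all loci with recovered reads were lower and 12.9% higher. In zop1 it lay above 1 for 4 genes (FDM2, CMT3, VIM3 and DDM1) and below for 2 (NRPE1 and CMT2), against 21.9% and 24.5%. In sta1 it lay above 1 for 1 gene (FDM2) and below for 10 (AGO6, NRPE1, RDM1, SUVH2, FDM1, DRM2, CMT3, CMT2, SUVH5 and MORC1), against 15.8% and 30.3%. For the other 14 genes (NRPD1, NRPD2, SHH1, DCL3, HEN1, AGO4, SUVH9, KTF1, IDN2, SUVR2, MET1, VIM1, SUVH6 and MOM1) reads were estimated from transcript length, which on the 24 gave a median of 1.07 times and up to 5.16 times the recovered number, so their intervals are approximate and can be too narrow.

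**Figure D3:**
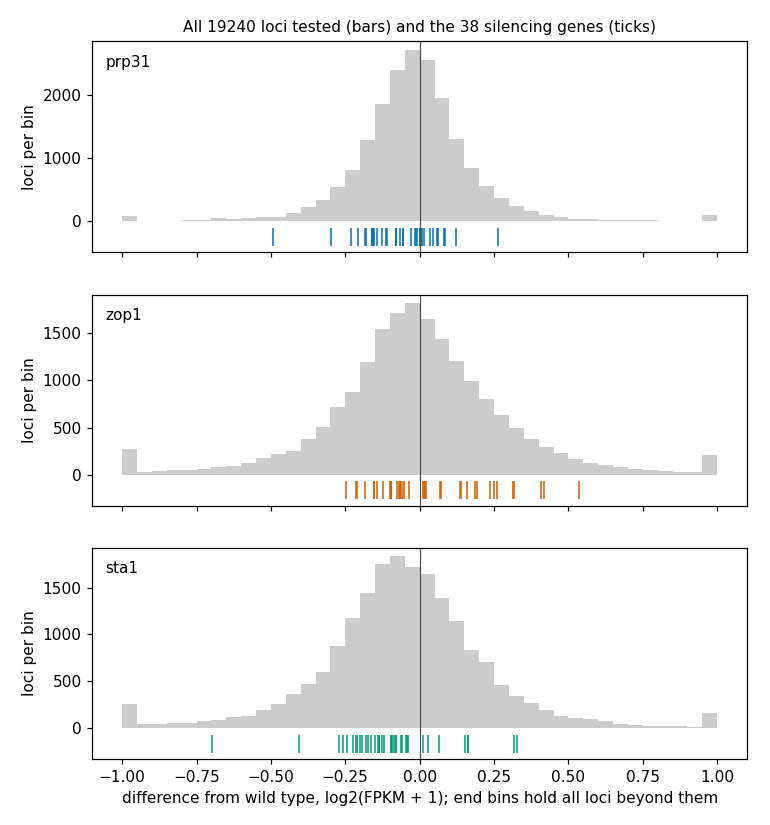
Histograms of the difference from the wild type in log2(FPKM + 1) over all 19240 loci tested, for prp31, zop1 and sta1 (loci per bin on the vertical axis), with the 38 silencing genes as ticks under the bars. The ticks reach from -0.49 to 0.26 in prp31, from -0.25 to 0.54 in zop1 and from -0.70 to 0.33 in sta1; AGO6 is the lowest tick in prp31 and in sta1.

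At the entry of the pathway, genes of Pol IV and its recruitment differed little between libraries where they were well expressed. NRPD1 (AT1G63020), the largest subunit of Pol IV, was at 1.14 FPKM in the wild type, against 0.923 in prp31, 0.969 in zop1 and 1.05 in sta1, the lowest level of the step among genes that passed the filter. The second-largest subunit NRPD2 (AT3G23780), which Pol IV and Pol V share, was the highest of the step, at 8.35 FPKM in the wild type, against 8.36 in prp31, 7.75 in zop1 and 7.84 in sta1. These 2 subunits were at like levels in all 4 libraries: the largest departure was NRPD1 in prp31, at 0.808 of the wild type (0.679 to 0.959). NRPD4 (AT4G15950), a smaller subunit that both polymerases share, was at 4.86 FPKM in the wild type, against 4.75 in prp31, 5.97 in zop1 and 4.62 in sta1, with zop1 the highest library and an interval of its ratio to the wild type (0.969 to 1.55) that included 1. SHH1 (AT1G15215), a reader of histone H3K9 methylation that recruits Pol IV, was at 5.43 FPKM in the wild type, against 6.71 in prp31, 6.70 in zop1 and 7.01 in sta1. All 3 mutant libraries were above the wild type for SHH1, at ratios of 1.24 (1.05 to 1.47) in prp31, 1.23 (1.03 to 1.48) in zop1 and 1.29 (1.09 to 1.54) in sta1. A gene on the other strand, AT1G15220, overlaps SHH1 and was itself at 3.02 FPKM in the wild type, against 3.61 in prp31, 5.43 in zop1 and 4.07 in sta1; as the use of strand in counting is not known, its part in the SHH1 values was not tested.

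Chromatin remodellers of the CLASSY family assist Pol IV. CLSY1 (AT3G42670) was at 1.60 FPKM in the wild type, against 1.83 in prp31, 1.64 in zop1 and 1.65 in sta1, flat across the libraries. The other listed members of the family were all under the filter. CHR42 (AT5G20420) was at 0.235 FPKM in the wild type, against 0.336 in prp31, 0.232 in zop1 and 0.274 in sta1. CHR40 (AT3G24340) was at 0.305 FPKM in the wild type, against 0.241 in prp31, 0.185 in zop1 and 0.346 in sta1. For these 2 genes each interval of the ratio to the wild type included 1. CHR31 (AT1G05490) was at 0.254 FPKM in the wild type, against 0.321 in prp31, 0.291 in zop1 and 0.528 in sta1, from 55 reads in the wild type, against 77 in prp31, 52 in zop1 and 103 in sta1. Its level was highest in sta1, at 2.08 times the wild type (1.48 to 2.94), while prp31 and zop1 had intervals that included 1. Over the 5 genes of the step that passed the filter, the median differences were 0.00 in prp31, 0.02 in zop1 and -0.06 in sta1; the last turned to 0.04 without the filter.

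The step that makes small RNAs and loads them held the largest difference of the list. AGO6 (AT2G32940), an Argonaute that binds small interfering RNAs and guides methylation, was at 3.32 FPKM in the wild type, against 2.07 in prp31, 3.12 in zop1 and 1.66 in sta1, from 457 reads in the wild type, against 316 in prp31, 354 in zop1 and 206 in sta1. The sta1 library was the lowest and prp31 the next lowest, while zop1 was near the wild type. The wild type level was 1.998 times that of sta1 (1.69 to 2.37) and 1.60 times that of prp31 (1.39 to 1.86). In zop1 the ratio to the wild type was 0.937 (0.814 to 1.08). On the log2(FPKM + 1) scale the differences were -0.49 in prp31, -0.07 in zop1 and -0.70 in sta1, the last being the largest difference of the 38 genes in any mutant. No 50-base window of the AGO6 transcript was shared with another locus and no annotated gene overlaps it.

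AGO4 (AT2G27040), the main Argonaute of the pathway, stood well above AGO6 in every library, at 26.6 FPKM in the wild type, against 23.7 in prp31, 33.3 in zop1 and 24.1 in sta1. Here zop1 was the highest library, at 1.25 (1.198 to 1.31) times the wild type, while prp31 and sta1 were a little below it, at 0.891 (0.853 to 0.932) and 0.906 (0.865 to 0.949). AGO9 (AT5G21150), best known from reproductive tissue, was at 0.217 FPKM in the wild type, against 0.287 in prp31, 0.909 in zop1 and 0.481 in sta1. These values rest on 15 reads in the wild type, against 22 in prp31, 52 in zop1 and 30 in sta1. The zop1 library was highest at 4.20 times the wild type (2.33 to 8.02), and sta1 was next at 2.22 times (1.16 to 4.44). Markers of flowers, AG, AP3, PI and SEP1, were all detected at low levels, and their summed level was 1.76 FPKM in the wild type, against 1.96 in prp31, 2.39 in zop1 and 1.62 in sta1. They were above the wild type in 3 of 4 cases in zop1 and 2 of 4 in sta1, and their part in the AGO9 values was not tested. The 3 Argonautes thus had different orders of libraries: AGO6 was lowest in sta1, AGO4 highest in zop1 with little else, and AGO9 lowest in the wild type.

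RDR2 (AT4G11130), the RNA-dependent RNA polymerase that copies Pol IV transcripts, was at 1.52 FPKM in the wild type, against 1.22 in prp31, 1.41 in zop1 and 1.38 in sta1, the lowest level of this step among genes that passed the filter. Its ratio to the wild type in prp31 was 0.802 (0.665 to 0.967). DCL3 (AT3G43920), the Dicer-like enzyme that cuts the double-stranded RNA, was at 2.07 FPKM in the wild type, against 1.71 in prp31, 1.58 in zop1 and 1.65 in sta1. For DCL3 the wild type was the highest library, and each mutant was below it. The ratios were 0.826 (0.723 to 0.941) in prp31, 0.766 (0.661 to 0.887) in zop1 and 0.798 (0.693 to 0.919) in sta1. AT3G43930, which overlaps DCL3 on the other strand, was at 1.11 FPKM in the wild type, against 1.01 in prp31, 1.57 in zop1 and 1.05 in sta1. Its part in the DCL3 values was not tested. HEN1 (AT4G20910), which methylates the ends of small RNAs and protects them, was at 4.33 FPKM in the wild type, against 3.94 in prp31, 5.64 in zop1 and 4.001 in sta1. Only zop1 stood above the wild type for HEN1, at 1.30 (1.17 to 1.45). All 5 genes of this step that passed the filter were below the wild type in prp31 and in sta1, where 55.9% and 60.0% of all loci were. The median differences of the step were -0.18 and -0.14. In zop1 3 were below and 2 above, and the median of -0.07 turned to 0.12 without the filter. With a filter at 5 FPKM only AGO4 was left in the step, at 0.31.

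**Figure D4:**
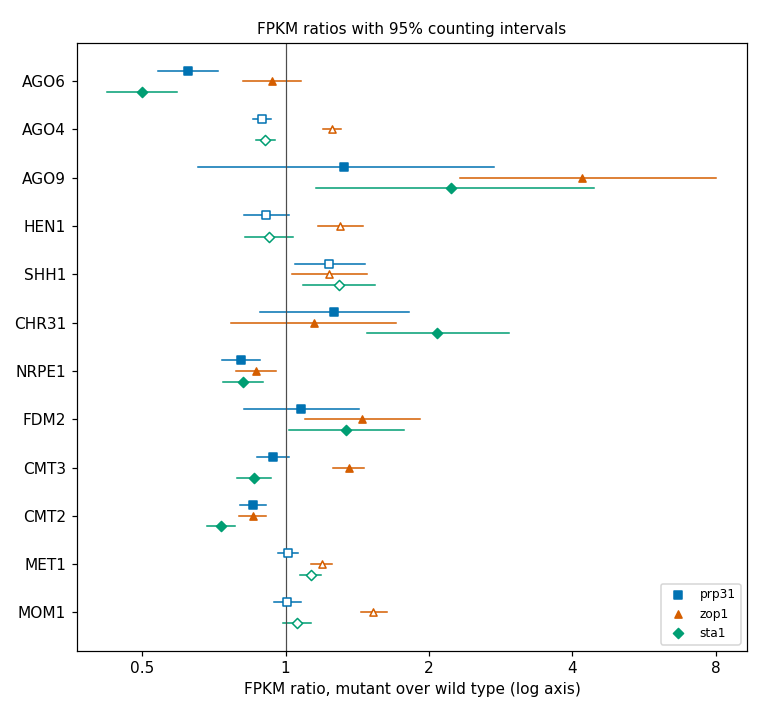
FPKM ratio of each mutant library to the wild type (log axis) with its 95% counting interval for 12 silencing genes, chosen after their values were seen; filled symbols rest on recovered reads and open symbols on estimated ones. AGO6 lies below 1 in prp31 and sta1, AGO9 and MOM1 lie highest in zop1, CHR31 is highest in sta1, and NRPE1 and CMT2 lie below 1 in all 3.

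Genes of Pol V and its recruitment were mostly a little below the wild type library: 7 of 8 in prp31, 6 of 8 in zop1 and 7 of 8 in sta1. Over all loci tested 55.9%, 53.2% and 60.0% were below it, and the 3 comparisons share the wild type library. Medians of the step were -0.13, -0.08 and -0.15, against -0.02, -0.02 and -0.06 over all loci. When the libraries were rescaled, DRD1 (AT2G16390) in prp31 and NRPE5 (AT3G57080) in sta1 turned above the wild type. NRPE1 (AT2G40030), the largest subunit of Pol V, was at 3.27 FPKM in the wild type, against 2.64 in prp31, 2.83 in zop1 and 2.65 in sta1. The wild type was the highest of the 4 libraries, and the ratios were 0.807 (0.736 to 0.885) in prp31, 0.867 (0.786 to 0.956) in zop1 and 0.813 (0.737 to 0.895) in sta1. NRPE5, a subunit particular to Pol V, was at 18.9 FPKM in the wild type, against 17.4 in prp31, 17.95 in zop1 and 18.3 in sta1, with every interval including 1. RDM4 (AT2G30280), a regulator that binds several RNA polymerases, was at 5.64 FPKM in the wild type, against 5.01 in prp31, 5.02 in zop1 and 5.70 in sta1, and for it too every interval included 1.

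The remodeller DRD1, the hinge-domain protein DMS3 (AT3G49250) and the small protein RDM1 (AT3G22680) form a complex that helps Pol V to work on chromatin. DRD1 was flat, at 2.78 FPKM in the wild type, against 2.75 in prp31, 2.81 in zop1 and 2.54 in sta1, the lowest of the step in the wild type. AT2G16400, which overlaps DRD1 on the other strand, was at 11.2 FPKM in the wild type, against 13.5 in prp31, 14.7 in zop1 and 12.2 in sta1. Its part in the DRD1 values was not tested. DMS3 was at 3.53 FPKM in the wild type, against 3.64 in prp31, 4.18 in zop1 and 3.12 in sta1, highest in zop1 and lowest in sta1. The annotated DMS3 transcript shares 54.0% of its 50-base windows with other loci, the most with AT3G49240, which overlaps it on the other strand. AT3G49240 was at 11.7 FPKM in the wild type, against 13.6 in prp31, 19.96 in zop1 and 15.1 in sta1, also highest in zop1. The part of such reads in the DMS3 values was not tested. RDM1 was at 10.9 FPKM in the wild type, against 9.66 in prp31, 9.26 in zop1 and 8.86 in sta1, with a ratio in sta1 of 0.812 (0.672 to 0.980). It shares 67.8% of its windows with other loci, the most with AT3G22670. That neighbour was at 1.01 FPKM in the wild type, against 1.12 in prp31, 1.04 in zop1 and 1.46 in sta1. The part of such reads in the RDM1 values was not tested.

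SUVH2 (AT2G33290) and SUVH9 (AT4G13460) bind methylated DNA and recruit Pol V. SUVH9 was the highest of the step in all libraries, at 28.5 FPKM in the wild type, against 25.5 in prp31, 26.5 in zop1 and 25.2 in sta1. SUVH2 was lower, at 4.84 FPKM in the wild type, against 4.57 in prp31, 4.60 in zop1 and 3.89 in sta1. Both were lowest in sta1, at 0.803 (0.700 to 0.920) of the wild type for SUVH2 and 0.883 (0.841 to 0.928) for SUVH9.

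Effectors that act on Pol V transcripts differed little between libraries apart from FDM2 (AT4G00380). KTF1 (AT5G04290), which binds AGO4 and Pol V transcripts, was at 11.0 FPKM in the wild type, against 10.9 in prp31, 10.3 in zop1 and 10.3 in sta1. IDN2 (AT3G48670), a double-stranded RNA-binding protein, was at 11.3 FPKM in the wild type, against 10.6 in prp31, 9.81 in zop1 and 10.08 in sta1. Its partner FDM1 (AT1G15910) was the highest of the step at 14.2 FPKM in the wild type, against 14.3 in prp31, 13.9 in zop1 and 12.8 in sta1. For these 3 genes each mutant library was within a ratio of 0.869 to 1.003 of the wild type. FDM2, a close relative of FDM1, was at 3.01 FPKM in the wild type, against 3.24 in prp31, 4.35 in zop1 and 4.03 in sta1, from 97 reads in the wild type, against 116 in prp31, 116 in zop1 and 117 in sta1. It was higher in zop1, at 1.45 (1.10 to 1.92), and in sta1, at 1.34 (1.01 to 1.77), than in the wild type. FDM2 shares 14.5% of its windows with other loci, the most with FDM1. The part of such reads in the FDM2 values was not tested. SUVR2 (AT5G43990), a SET-domain protein that works with chromatin remodellers in silencing, was at 2.93 FPKM in the wild type, against 3.08 in prp31, 3.32 in zop1 and 2.81 in sta1, the lowest of the step in the wild type, with every interval including 1. AT5G44000, which overlaps SUVR2 on the other strand, was at 26.7 FPKM in the wild type, against 29.7 in prp31, 32.8 in zop1 and 32.3 in sta1. Its part in the SUVR2 values was not tested. Median differences of the step were 0.00 in prp31, -0.03 in zop1 and -0.10 in sta1.

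Among the DNA methyltransferases, the libraries differed by enzyme. DRM2 (AT5G14620), the de novo methyltransferase of the pathway, was at 4.94 FPKM in the wild type, against 3.82 in prp31, 4.63 in zop1 and 4.30 in sta1. Every mutant was below the wild type for DRM2 in level, and the ratio in prp31 was the lowest, at 0.775 (0.678 to 0.885). MET1 (AT5G49160), which maintains methylation at CG sites, had the highest wild type level of its step, at 12.9 FPKM in the wild type, against 13.0 in prp31, 15.3 in zop1 and 14.5 in sta1. It was above the wild type in zop1, at 1.19 (1.13 to 1.25), and in sta1, at 1.13 (1.07 to 1.19), and level with it in prp31.

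The chromomethylases CMT3 (AT1G69770) and CMT2 (AT4G19020) act at non-CG sites marked by H3K9 methylation. CMT3, which methylates CHG sites, was at 10.5 FPKM in the wild type, against 9.89 in prp31, 14.3 in zop1 and 9.01 in sta1. It was highest in zop1, at 1.36 (1.26 to 1.46), and lowest in sta1, at 0.857 (0.789 to 0.931). CMT2, which methylates CHH sites, was at 10.8 FPKM in the wild type, against 9.20 in prp31, 9.20 in zop1 and 7.91 in sta1. It was below the wild type in all 3 mutants, at 0.853 (0.802 to 0.907) in prp31, 0.852 (0.797 to 0.911) in zop1 and 0.733 (0.684 to 0.784) in sta1. In zop1 the pair thus lay on opposite sides of the wild type, and in sta1 both lay below it.

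Maintenance also needs the VIM proteins, which hold MET1 to newly copied DNA, and the remodeller DDM1 (AT5G66750), which opens heterochromatin to the methyltransferases. VIM1 (AT1G57820) was at 9.87 FPKM in the wild type, against 10.2 in prp31, 10.9 in zop1 and 11.2 in sta1. VIM3 (AT5G39550) was at 3.96 FPKM in the wild type, against 3.77 in prp31, 4.65 in zop1 and 3.57 in sta1, the lowest of the step in the wild type among genes that passed the filter. Their ratios in zop1 were 1.11 (1.02 to 1.21) and 1.17 (1.01 to 1.36). VIM2 (AT1G66050) was at 0.0330, 0.0199, 0.0533 and 0.0367 FPKM in the wild type, prp31, zop1 and sta1, which is 2 to 4 reads a library. It shares 70.7% of its windows with other loci, the most with VIM4, so no ratio is given for it. DDM1 was at 4.22 FPKM in the wild type, against 4.23 in prp31, 4.83 in zop1 and 3.91 in sta1, with a ratio in zop1 of 1.14 (1.01 to 1.30). In zop1 5 of the 7 genes of this step that passed the filter were above the wild type, where 46.6% of all loci were. The median of the step was 0.16, against -0.02 over all loci, and the exceptions were DRM2 and CMT2. The medians in prp31 and sta1 were -0.06 and -0.12. Of 8 markers of dividing cells, all detected, 5 were above the wild type in prp31, as were 6 in zop1 and 5 in sta1. Their summed level was 70.9 FPKM in the wild type, against 71.3 in prp31, 82.8 in zop1 and 77.2 in sta1, and their part in the levels of MET1, CMT3, VIM1, VIM3 and DDM1 was not tested. In whole seedlings fewer cells of a type and less RNA per cell cannot be told apart.

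Histone H3K9 methyltransferases feed the loop with the chromomethylases. SUVH4 (AT5G13960), the main enzyme and also known as KRYPTONITE, was at 4.43 FPKM in the wild type, against 4.76 in prp31, 4.48 in zop1 and 5.03 in sta1, with every interval including 1. AT5G13970, which overlaps SUVH4 on the other strand, was at 9.57 FPKM in the wild type, against 9.53 in prp31, 10.9 in zop1 and 9.94 in sta1. Its part in the SUVH4 values was not tested. SUVH5 (AT2G35160) was the lowest of the step, at 1.38 FPKM in the wild type, against 1.18 in prp31, 1.498 in zop1 and 1.01 in sta1. SUVH6 (AT2G22740) was the highest, at 6.78 FPKM in the wild type, against 5.996 in prp31, 5.99 in zop1 and 5.71 in sta1. It shares 39.6% of its 50-base windows with other loci, the most with an annotated locus on the other strand. In sta1 SUVH5 was at 0.732 (0.574 to 0.930) of the wild type and SUVH6 at 0.841 (0.757 to 0.936). SUVH6 was also below the wild type in prp31, at 0.884 (0.801 to 0.976), and in zop1, at 0.883 (0.794 to 0.983). Across the 3 enzymes, SUVH6 alone thus had intervals below 1 in every mutant, but its reads were estimated and these intervals can be too narrow. The step medians were -0.13 in prp31, 0.01 in zop1 and -0.21 in sta1.

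Of the other chromatin silencers, MOM1 (AT1G08060) stood apart in 1 library. MOM1, which represses transcription with little effect on DNA methylation, was at 5.63 FPKM in the wild type, against 5.67 in prp31, 8.61 in zop1 and 5.94 in sta1. The zop1 library was 1.53 times the wild type (1.44 to 1.63), whereas prp31 was at 1.01 (0.944 to 1.07) and sta1 at 1.06 (0.987 to 1.13). On the log2(FPKM + 1) scale the zop1 difference was 0.54, just inside the 1.5-fold rule, and its reads were estimated. HDA6 (AT5G63110), a histone deacetylase needed for silencing of repeats, was the highest of the step and nearly flat. It was at 17.6 FPKM in the wild type, against 16.9 in prp31, 18.5 in zop1 and 17.1 in sta1. AT5G63100, which overlaps HDA6 on the same strand, was at 9.90 FPKM in the wild type, against 10.4 in prp31, 10.2 in zop1 and 9.74 in sta1. Its part in the HDA6 values was not tested.

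MORC proteins are ATPases that compact silenced chromatin. MORC6 (AT1G19100) was at 3.80 FPKM in the wild type, against 3.78 in prp31, 3.86 in zop1 and 3.40 in sta1. Its partner MORC1 (AT4G36290) was at 7.09 FPKM in the wild type, against 6.66 in prp31, 6.56 in zop1 and 6.14 in sta1. MORC2 (AT4G36280), a close relative of MORC1, was the lowest of the step, at 1.22 FPKM in the wild type, against 1.32 in prp31, 1.14 in zop1 and 0.945 in sta1. In all 3 the sta1 library was the lowest of the 4, with ratios to the wild type of 0.895 (0.777 to 1.03) for MORC6, 0.866 (0.771 to 0.972) for MORC1 and 0.772 (0.575 to 1.03) for MORC2, of which only that of MORC1 excluded 1. The step medians were -0.01 in prp31, which turned to 0.01 or 0.02 when the libraries were rescaled, 0.02 in zop1 and -0.13 in sta1.

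Direct comparisons between mutants do not use the wild type library. Between prp31 and zop1, 0 of the 38 genes were higher in prp31 and 0 lower by the 1.5-fold rule, against 3.70% and 3.18% of all loci. Between prp31 and sta1, 0 were higher in prp31 and 0 lower, against 3.19% and 1.67%. Between zop1 and sta1, 2 were higher in zop1 and 0 lower, against 3.04% and 1.78%; the 2 were AGO6, at 1.87 (1.57 to 2.23) times the sta1 level, and CMT3, at 1.58 (1.46 to 1.72) times. By FPKM ratio SUVH5 was next, at 1.48 (1.16 to 1.90) times, and then MOM1, at 1.45 (1.36 to 1.54) times. In this pair 27 of the 38 genes were higher in zop1 and 11 lower, where 57.4% of all loci were higher and 42.4% lower. The median was 0.09, against 0.04 over all loci. AGO6 was also higher in prp31 than in sta1, at 1.25 (1.04 to 1.49) times, so the order of its levels was the wild type and zop1, for which the interval of the ratio included 1, then prp31, then sta1.

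A further 45 silencing genes that are not among the 43 were read for context, and 32 of them passed the filter. By the 1.5-fold rule 0 were higher or lower in prp31, 1 was higher and 0 lower in zop1, and 0 were higher or lower in sta1. The 1 gene was AGO7, an Argonaute of trans-acting small interfering RNA production, at 2.75 FPKM in the wild type, against 3.84 in prp31, 5.40 in zop1 and 2.76 in sta1, or 1.96 (1.73 to 2.22) times the wild type in zop1. Of the 32, 20 were below the wild type in prp31, as were 20 in zop1 and 24 in sta1, with medians of -0.03, -0.06 and -0.12. Over all loci tested 55.9%, 53.2% and 60.0% were below the wild type in these libraries, with medians of -0.02, -0.02 and -0.06.

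Because the mutated proteins act in splicing, the gene models were set beside the differences. By the TAIR10.1 annotation the 38 genes had a median of 9 introns in their longest transcript over a range of 1 to 23, against a median of 3 over all loci tested. Across these genes Spearman's rho between the number of introns and the difference from the wild type came to -0.11 for prp31, 0.03 in zop1 and -0.07 in sta1. With transcript length it was -0.21, -0.12 and -0.19. These are descriptions over 38 genes measured in the same libraries. AGO4, AGO6 and AGO9 each have 22 introns, and the part of introns in their levels was not tested. The deposited values are per gene, so intron retention and splice isoforms were not analysed here.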

How the data were processed

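Polyadenylated RNA of whole seedlings was sequenced in 4 libraries, grouped by title and genotype label. The authors deposited FPKM values, 1 column per library, for 34133 loci. TopHat2 2.0.12, Bowtie, Cuffdiff and Cufflinks 2.0.1 are named, with the build TAIR10, per the submitters' processing notes. What each did, in which order and with which settings, and whether strand was used, is not given in the sources used here. Cufflinks FPKM are estimates that can split reads between overlapping or similar genes, which can affect some of the 43 loci. Of these, 10 overlap a gene on the other strand and 1, HDA6, overlaps a gene on the same strand. At least 10% of the 50-base windows were shared with other loci for 7. For 29 no window was shared. Columns of per-sample values left unused numbered 0.

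The differences, counts and medians were computed in Python 3.11.15 with numpy 2.4.6, pandas 2.3.3 and SciPy 1.17.1, with a pseudocount of 1 FPKM and a filter at a mean of 1 FPKM. Reads were recovered where all 4 FPKM of a locus divided into whole numbers by the worth of 1 read (relative worth 0.902 in prp31, 1.21 in zop1 and 1.11 in sta1, and 204 nt taken from the transcript length), which worked for 12710 of the 19240 loci tested (66.1%). A divisor common to the libraries cannot be seen, so read numbers are lower bounds. This step was tested on simulated data. Positions, gene models and promoters came from the TAIR10.1 RefSeq annotation.

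The members, gene lists and markers were chosen with earlier results of these data known. All 43 genes are named; of the further genes of the pathway, the report names those past the 1.5-fold rule on the log2(FPKM + 1) scale, and those under other observations were chosen after their values were seen. The AGO9 promoter is not reported here. The promoters shown and the genes in the plot of ratios were chosen after the values were seen. Alternatives were pseudocounts of 0.1 and 5, no filter, a filter at 5 FPKM, and scaling by median ratio or upper quartile.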

Additional observations from a re-analysis of the deposited data

How the results depend on the processing

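Of 126 step medians recomputed under the alternatives, 124 moved by less than the spread used for comparison and 2 moved by more; of 627 differences of single genes, 621 and 6 did so. No gene past the 1.5-fold rule changed sign. Small differences did under rescaling: DRD1, NRPD4, KTF1 and MORC6 turned above the wild type in prp31, and NRPE5, SUVR2 and HDA6 in sta1. Counts by the 1.5-fold rule rest on few genes near the rule. With a pseudocount of 0.1, 1 gene was lower in prp31 (AGO6), 1 higher in zop1 (MOM1) and 1 lower in prp31 than in zop1 (MOM1). Of all loci, 2.27%, 4.86% and 4.83% were so counted. Without the filter 1 was higher in zop1 (AGO9), against 2.12% of all loci. With a pseudocount of 5, 0 were lower in sta1 and 0 higher in zop1 than in sta1, against 1.73% and 1.17% of all loci. With a filter at 5 FPKM, 0 were lower in sta1 and 1 was higher in zop1 than in sta1 (CMT3), against 3.41% and 2.63%. Under scaling by median ratio or upper quartile, 1 was higher in zop1 than in sta1 in each case (AGO6). The shares of all loci were then 2.50% and 2.51%. With shares this low, few calls or none would be expected, so these counts do not set the genes apart. The median over the genes in zop1 turned from -0.01 to 0.01 without the filter and under upper-quartile scaling.

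No paired analysis was possible because each group has 1 library and the labels give no replicate numbers; for the same reason leaving out a library gives no value, and the spread between plants is unknown. Depth limits the 5 genes under the filter most: VIM2 rests on 2 to 4 reads a library, and AGO9 on 15 in the wild type.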

Other observations

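Genes of post-transcriptional silencing, which use other Dicer-like and RNA-dependent RNA polymerase proteins than the pathway above, were listed for context and chosen for mention after their values were seen. RDR6, which makes double-stranded RNA for trans-acting small interfering RNAs, was at 9.19 FPKM in the wild type, against 9.43 in prp31, 7.47 in zop1 and 8.08 in sta1, and its ratio to the wild type was 0.812 (0.752 to 0.878) in zop1 and 0.879 (0.816 to 0.946) in sta1. DCL4, the Dicer-like enzyme that cuts its products, was at 4.15 FPKM in the wild type, against 4.14 in prp31, 3.33 in zop1 and 3.22 in sta1, with ratios of 0.802 (0.701 to 0.916) in zop1 and 0.777 (0.681 to 0.886) in sta1. RDR1, a further RNA-dependent RNA polymerase, was at 3.04 FPKM in the wild type, against 3.19 in prp31, 2.30 in zop1 and 2.18 in sta1, with ratios of 0.755 (0.657 to 0.867) in zop1 and 0.718 (0.625 to 0.823) in sta1. In these 3 genes zop1 and sta1 were the low libraries and prp31 was close to the wild type.

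DCL2 was at 6.65 FPKM in the wild type, against 6.40 in prp31, 5.98 in zop1 and 5.40 in sta1. SGS3, the partner of RDR6, was at 21.1 FPKM in the wild type, against 20.6 in prp31, 18.6 in zop1 and 20.2 in sta1. AGO1, the main Argonaute of microRNAs, was at 51.6 FPKM in the wild type, against 47.0 in prp31, 48.0 in zop1 and 40.6 in sta1, lowest in sta1 at 0.786 (0.761 to 0.812) of the wild type. AGO7 had another order, with zop1 the highest library, as given with the further genes of the pathway. FDM4, a relative of FDM1, was at 2.75 FPKM in the wild type, against 2.75 in prp31, 4.27 in zop1 and 2.74 in sta1, and stood at 1.56 (1.33 to 1.82) times the wild type in zop1 alone. VIM6 was at 3.62 FPKM in the wild type, against 4.14 in prp31, 5.21 in zop1 and 5.63 in sta1, with all 3 mutant libraries above the wild type.

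Seed storage markers (CRA1, CRC, CRB and OLEO1) summed to 13.2 FPKM in the wild type, against 5.97 in prp31, 1.08 in zop1 and 4.64 in sta1. The sum rests mostly on CRA1 and CRC in the wild type. Of the 4 markers, 1 was above the wild type in prp31, with 0 in zop1 and 2 in sta1, where OLEO1 was at 1.75 (1.24 to 2.49) times the wild type.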
